A study of Sus scrofa with 12 samples.

Results

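The arachidonic acid route was followed through 10 enzymes that make prostaglandins and leukotrienes, namely PLA2G4A, PTGS1, PTGS2, PTGIS, TBXAS1, PTGES, PTGES2, PTGES3, ALOX5 and LTA4H. They were looked up by pig gene symbol from a list of names, and all 10 were found among the 19681 Ensembl pig genes measured in every library. RNA was sequenced from the porcine endothelial cell line AOC and from porcine iPS cells taken 2, 4 and 12 days into endothelial induction (IEC2, IEC4 and IEC12), with 3 biological replicates (A, B and C) per group. Up to day 2 the iPS cells had received CHIR99021, an activator of WNT signaling. BMP4, FGF2 and VEGF followed up to day 4, and after that an endothelial growth medium with added VEGF was used. AOC is a grown line and not a stage of this induction, and its culture medium is not given in the sources used here. IEC12 is the whole day 12 culture before any sorting for CD31. Neither the uninduced iPS cells nor the sorted cells were analysed here.

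Arachidonic acid is a fatty acid stored in membrane phospholipids, and the cytosolic phospholipase PLA2G4A is the enzyme best known for releasing it when a cell is stimulated. The cyclooxygenases PTGS1 (COX-1) and PTGS2 (COX-2) turn it into prostaglandin H2, which terminal synthases convert further. PTGIS makes prostacyclin, the product for which vascular endothelium is known and which widens vessels and holds platelets back. TBXAS1 makes thromboxane A2, typically in platelets and macrophages, and PTGES, PTGES2 and PTGES3 make prostaglandin E2. In the other branch ALOX5 makes leukotriene A4 and LTA4H hydrolyses it to leukotriene B4, a signal that attracts leukocytes.

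Levels were FPKM values, that is, fragment counts divided by transcript length and sequencing depth, so levels of different genes can be set side by side. Differences between groups were taken on the scale log2(FPKM + 1), which understates the change of genes with low levels, and were tested with limma. Genes that reached an FPKM of 1 in 3 or more of the libraries fitted were tested, and a difference was called at a Benjamini-Hochberg adjusted p below 0.05 over all genes tested. In whole cultures, fewer cells of a type and less RNA per cell cannot be told apart. The FPKM totals of the 12 libraries lay between 335976 and 457194, and 8357 to 10467 genes reached an FPKM of 1. The number of reads behind a value is unknown. Relative depth was taken from the most common ratio of a gene's value in IEC12 A to that in each library, among values below 0.2 FPKM. It lay between 0.648 and 1.20, with IEC12 A the shallowest.

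Every endothelial marker found, except KDR, was higher in each AOC library than in all induced libraries. KDR was between 1.31 and 1.46 FPKM in AOC and between 2.42 and 3.99 in IEC2 (AOC minus IEC2 -0.72, limma adjusted p = 0.00235). At the later stages KDR was at most 0.302 FPKM. CDH5 (VE-cadherin), an adhesion molecule of endothelial junctions, was between 103 and 137 FPKM in AOC and was listed at 0 in all 9 induced libraries. PECAM1 (CD31) was between 91.7 and 131 FPKM in AOC and at most 0.554 in the induced cells. The 11 endothelial markers found summed to 298 to 424 FPKM in AOC, and in the induced libraries to 3.44 to 5.97 at day 2, 2.04 to 3.39 at day 4 and 0.425 to 0.609 at day 12. CD31-positive cells were sorted from the day 12 culture in the study, yet PECAM1 was between 0.0198 and 0.106 FPKM in the IEC12 libraries. Whether these libraries match their label was not tested, and every value of IEC12 rests on them. Labels of the IEC2 and IEC4 libraries were not tested either. Of 8 pluripotency markers listed, 3 were found (NANOG, LIN28A and DNMT3B), and POU5F1 and SOX2 were not. Among induced libraries their sum was lowest on day 2, at most 0.664 FPKM, with LIN28A listed at 0. On day 4 the sum was no lower than 7.52 FPKM, and on day 12 no lower than 2.56. Fits of only the 2 groups compared, and so without IEC12, were also made. IEC4 against IEC2 then called 3 of 7 enzymes, beside 39.7% of all genes tested. AOC against IEC2 called 4 of 7, beside 66.6%, and AOC against IEC4 5 of 7, beside 71.6%. The genes tested were still chosen with the IEC12 libraries included.

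In Sscrofa11.1, the assembly that UCSC calls susScr11 and on which the reads were aligned, RefSeq places the prostaglandin E synthases PTGES2 at chr1:268585725-268591356 and PTGES at chr1:269911785-269924481, a gap of 1.32 Mb with 37 protein-coding genes between them. PTGS1 lies on the same chromosome at chr1:262456106-262482159. The genes of the inducible cyclooxygenase and of the phospholipase adjoin each other, with PTGS2 at chr9:127850164-127858866 and PLA2G4A at chr9:127853581-128164825. These 2 annotated spans share 5286 bp. Whether the reads were counted by strand is not given in the sources used here, so reads in that stretch cannot be assigned to either gene for certain. PTGES3 (chr5:22000335-22022830) and LTA4H (chr5:87486552-87518520) share a chromosome but lie 65.5 Mb apart. ALOX5 is at chr14:90859209-90907084, PTGIS at chr17:51153151-51200515 and TBXAS1 at chr18:9717291-9886699. All 10 are protein-coding genes. PTGIS overlaps a pseudogene, and TBXAS1 and LTA4H each overlap a long non-coding RNA.

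The results showed that the enzymes covered a wide range of levels. LTA4H and PTGES3 were abundant in every group: the mean level of LTA4H was above that of 99.3% of all genes in IEC2 and 97.0% in AOC, and that of PTGES3 above 95.7% to 96.3% in the 4 groups. PTGES, PTGS2 and PLA2G4A were intermediate, PTGIS was high only in the AOC libraries, and ALOX5 was low. PTGS1, PTGES2 and TBXAS1 stayed at or below 1.02 FPKM in all 12 libraries, and these 3 did not pass the filter on low values. The other 7 were tested in both fits. PTGIS passed in the induced cells only through the IEC4 libraries, so it had to differ between IEC4 and the other stages.

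**Figure D1:**
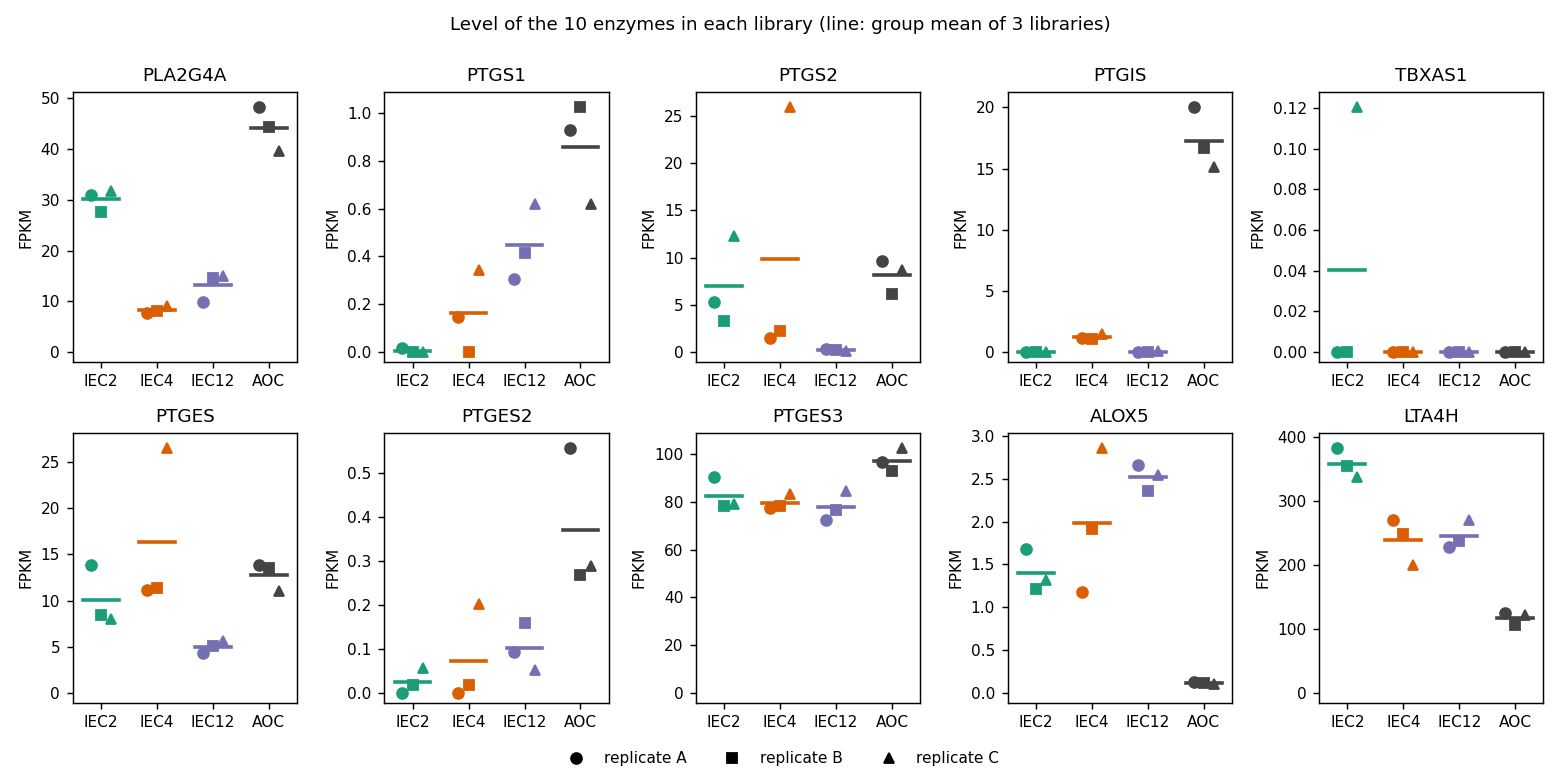
Level of each of the 10 enzymes in FPKM (vertical axes, a separate scale per gene) in the 3 libraries of IEC2, IEC4, IEC12 and AOC (horizontal axis); the marker shape gives the replicate and the line the group mean. PLA2G4A and LTA4H separate day 2 from the later stages, PTGIS reaches 15.2 to 20.0 only in AOC, and replicate C of IEC4 stands far above A and B for PTGS2 and PTGES.

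PLA2G4A, which starts the route, was highest in AOC, lower in IEC2 and lowest at the later stages. Its FPKM was 48.3, 44.4 and 39.7 in AOC replicates A, B and C, and 31.0, 27.7 and 31.7 in IEC2. It was 7.74, 8.13 and 9.0 in IEC4 and 9.88, 14.6 and 14.9 in IEC12. No library of one group overlapped with another group. From day 2 to day 4 the level fell by 1.74 on the log2 scale (SE 0.173, limma adjusted p = 7.28e-05), from 30.1 ± 2.16 to 8.29 ± 0.648 FPKM (SD, n = 3). The difference of 0.59 between IEC12 and IEC4 also passed (SE 0.173, adjusted p = 0.0214), but it was lost in 5 of 13 alternatives. These were scaling all libraries to the same total (0.39, adjusted p = 0.145) and leaving out IEC12 B, IEC12 C, IEC4 A or IEC4 B (adjusted p = 0.086, 0.0611, 0.0636 and 0.0606). IEC12 was still below IEC2, by -1.16 (adjusted p = 0.000596). AOC was 1.69 above IEC12 (adjusted p = 2.28e-06) and 2.28 above IEC4 (adjusted p = 1.76e-07). Its lead of 0.53 over IEC2 (adjusted p = 0.0101) became 0.21 with equal totals (adjusted p = 0.34).

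The cyclooxygenases showed different patterns. PTGS2, the inducible form, was at 9.69, 6.14 and 8.72 FPKM in AOC and at 5.25, 3.33 and 12.3 in IEC2. In IEC4 it was at 1.49 and 2.24 in replicates A and B but at 25.9 in replicate C, the highest value of all libraries. In IEC12 it was at 0.314, 0.182 and 0.0780, below every other library. The other 3 groups overlapped, and PTGS2 passed the filter on low values through them and not through IEC12. With no filter, its limma adjusted p for AOC against IEC12 was 0.0123. PTGS2 was lower in IEC12 than in AOC by 2.93 (SE 0.719, 95% CI 1.36 to 4.50, adjusted p = 0.00411), and this held in all 13 alternatives. It was also lower in IEC12 than in IEC2, with a difference of -2.58 (SE 0.779, adjusted p = 0.0232). That call was lost in 3 of 13 alternatives, namely without IEC2 C (adjusted p = 0.0879), without IEC12 B (0.0599) and with no filter on low values (0.0646). The difference of -2.34 between IEC12 and IEC4 (SE 0.779, adjusted p = 0.0347) was lost in 5 of 13, namely without IEC12 A, B or C (adjusted p = 0.0586, 0.0795 and 0.0641), with no filter (0.0826) and with these 2 groups fitted alone (0.0579). Among AOC, IEC2 and IEC4 no difference passed, and the intervals were wide: -1.99 to 1.50 for IEC4 against IEC2, -1.23 to 1.92 for AOC against IEC2 and -0.98 to 2.16 for AOC against IEC4.

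Replicate C decided the level of PTGS2 in IEC4. Without it, IEC12 minus IEC4 was -1.26 in place of -2.34 (adjusted p = 0.0418), PTGS2 was lower in IEC4 than in IEC2 by -1.33 (adjusted p = 0.0394) and AOC was 1.67 above IEC4 (adjusted p = 0.00322). The same library also held the highest PTGES, at 26.5 FPKM against 11.1 and 11.4 in A and B. The summed FPKM of the 7 epithelial markers found was 531 and 693 in IEC4 A and B and 1507 in C, while it was 118 to 153 in IEC2, 42.3 to 87.1 in IEC12 and 2.25 to 4.05 in AOC. The part of these markers in the PTGS2 and PTGES values was not tested.

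PTGS1, the form that many tissues carry constantly, was at 0.929, 1.02 and 0.618 FPKM in AOC. It was listed at 0 in IEC2 B and C and in IEC4 B, and was at 0.0165 in IEC2 A and at 0.146 and 0.345 in IEC4 A and C. In IEC12 it was at 0.305, 0.416 and 0.618. The highest IEC12 library thus reached the lowest AOC library. With no filter on low values, PTGS1 was higher in AOC than in IEC2 by 0.88 (adjusted p = 0.000203), in AOC than in IEC4 by 0.68 (adjusted p = 0.0011), in AOC than in IEC12 by 0.36 (adjusted p = 0.0413) and in IEC12 than in IEC2 by 0.52 (adjusted p = 0.0132). PTGS2 made up 90.1% ± 3.96 of the summed FPKM of both cyclooxygenases in AOC, 99.9% ± 0.181 in IEC2 and 96.6% ± 4.82 in IEC4 (SD, n = 3). In IEC12 it made up 30.8% ± 19.8, with single libraries between 11.2% and 50.7%. At day 12 both cyclooxygenases were below 1 FPKM, so that share rests on low values.

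PTGIS, the prostacyclin synthase, marked the AOC line. It was at 20.0, 16.7 and 15.2 FPKM in AOC and was listed at 0 in all 3 IEC2 libraries. In IEC4 it was at 1.17, 1.06 and 1.47, and in IEC12 at 0.0108, 0.00625 and 0.0763. No groups overlapped. AOC was above IEC4 by 3.03 (SE 0.142, adjusted p = 7.95e-09) and above IEC12 by 4.14 (SE 0.142, adjusted p = 6.7e-10). For AOC against IEC2 the adjusted p was 4.86e-10, and no fold is given because IEC2 was listed at 0. Since the filter let PTGIS into the fit of the induced cells through IEC4 alone, its differences there are given from the fit with no filter, which chooses no gene by its level. In that fit PTGIS was called in IEC4 against IEC2 (adjusted p = 8.51e-05) and fell by 1.11 from IEC4 to IEC12 (adjusted p = 0.000122), and the adjusted p for AOC was 8.56e-09 against IEC2, 8.64e-08 against IEC4 and 1.01e-08 against IEC12. The summed endothelial markers were likewise high in the AOC libraries alone (298 to 424 FPKM, and at most 5.97 in the induced cells), and their part in the PTGIS level was not tested.

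TBXAS1, the thromboxane synthase, was listed at 0 in 11 of the 12 libraries and was at 0.120 FPKM in IEC2 C. It could not be compared between groups at this depth. The summed FPKM of 15 leukocyte and platelet markers, cells in which this enzyme is typically found, was low throughout. It was lowest at day 12 (5.78 to 10.5) and lay between 10.7 and 18.9 in the other 9 libraries. Single markers did not share 1 order. PTPRC was at 1.16 to 1.64 FPKM in IEC12 and 2.14 to 3.49 in IEC4, at most 0.0258 in IEC2, and listed at 0 in AOC. SPI1 was at 4.43 to 9.16 in AOC and IEC2 and at 1.22 to 2.65 in IEC4 and IEC12.

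Of the prostaglandin E synthases, PTGES is the membrane-bound form that often rises together with PTGS2 in inflamed tissue. AOC replicates A, B and C had 13.8, 13.6 and 11.1 FPKM. The values were 13.8, 8.46 and 8.01 at day 2, 11.1, 11.4 and 26.5 at day 4, and 4.28, 5.09 and 5.64 at day 12. Every IEC12 library was below every library of the other groups, which overlapped each other. PTGES fell from IEC4 to IEC12 by 1.42 (SE 0.323, adjusted p = 0.00646) and was 1.20 higher in AOC than in IEC12 (SE 0.297, adjusted p = 0.00426), both in all 13 alternatives. The difference of -0.86 between IEC12 and IEC2 did not pass (95% CI -1.58 to -0.13, adjusted p = 0.0559), though it did in 3 of 13 alternatives. For IEC4 against IEC2 the difference was 0.57 (95% CI -0.15 to 1.29, adjusted p = 0.193). The results thus showed both PTGS2 and PTGES at their lowest on day 12.

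PTGES2, a second membrane-associated form, was at 0.555, 0.268 and 0.288 FPKM in AOC and at most 0.201 in the induced cells, where it was listed at 0 in IEC2 A and IEC4 A. With no filter it was higher in AOC than in IEC2 by 0.41 (adjusted p = 0.00362), than in IEC4 by 0.35 (adjusted p = 0.00817) and than in IEC12 by 0.31 (adjusted p = 0.0191). PTGES3, the cytosolic form, is also known as p23, a co-chaperone of HSP90 found in most cells. Its FPKM was 96.6, 92.8 and 102 in AOC. The IEC2 libraries had 90.4, 78.4 and 79.1, those of IEC4 77.6, 78.2 and 83.1 and those of IEC12 72.2, 76.4 and 84.4. The 3 stages of induction overlapped, and the differences between them were between -0.09 and -0.04, with no 95% CI beyond -0.35 or 0.22. AOC was above all induced libraries. The differences of 0.29 to IEC4 (adjusted p = 0.0251) and 0.32 to IEC12 (adjusted p = 0.0165) passed, and that of 0.23 to IEC2 did not (adjusted p = 0.0606). With equal totals none of the 3 passed (0.03, 0.27 and -0.10, adjusted p = 0.858, 0.0729 and 0.5), and the last changed sign. Leaving out AOC A, AOC C, IEC4 A or IEC4 B also ended the call against IEC4 (adjusted p = 0.053, 0.0845, 0.0623 and 0.068). Leaving out AOC C or IEC12 B ended that against IEC12 (0.0594 and 0.0524), and the difference to IEC2 passed in 3 of 13 alternatives, namely without IEC2 A (0.0308), with no filter (0.0473) and with median-of-ratios scaling (0.49, adjusted p = 0.01).

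PTGES3 made up 76.2% ± 2.96 of the summed FPKM of the 5 terminal synthases in AOC. At days 2, 4 and 12 of induction it made up 89.2% ± 2.16, 82.4% ± 6.69 and 93.8% ± 0.402 (SD, n = 3). Since it has a second role, the shares were also taken without it. PTGIS then made up 56.7% ± 1.77 in AOC, 7.74% ± 2.25 in IEC4 and 0.562% ± 0.660 in IEC12, and was listed at 0 in IEC2. PTGES made up 42.1% ± 2.11 in AOC and 92.0% ± 1.87 in IEC4, 97.4% ± 0.502 in IEC12 and 99.2% ± 1.20 in IEC2. By transcript, AOC held more prostacyclin synthase than PTGES in each of its 3 libraries, and the induced cells held more PTGES in all 9.

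**Figure D2:**
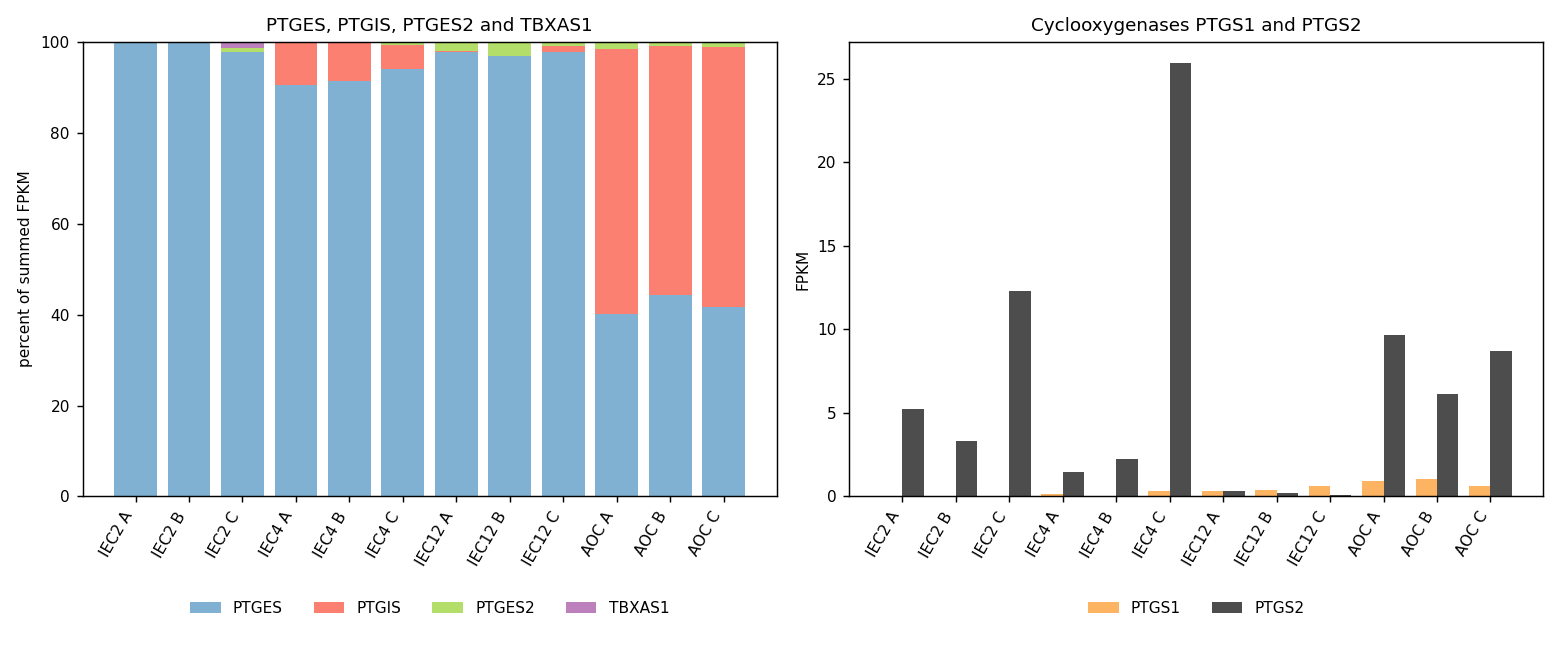
Left, percent of the summed FPKM of PTGES, PTGIS, PTGES2 and TBXAS1 in each of the 12 libraries (horizontal axis); right, FPKM of the cyclooxygenases PTGS1 and PTGS2 in the same libraries. PTGIS takes 54.7% to 58.2% in the AOC libraries and at most 9.51% in the induced ones, and PTGS2 exceeds PTGS1 except in IEC12 B and C.

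In the leukotriene branch both enzymes were lower in AOC than in the induced cells. LTA4H, which also acts as an aminopeptidase, was at 125, 106 and 121 FPKM in AOC. It was at 382, 354 and 338 in IEC2, at 270, 248 and 199 in IEC4 and at 228, 238 and 271 in IEC12. IEC2 was above all other libraries, AOC was below all others, and IEC4 and IEC12 overlapped. LTA4H fell from IEC2 to IEC4 by 0.59 (SE 0.138, adjusted p = 0.00862) and was 0.54 below IEC2 in IEC12 (a difference of -0.54, adjusted p = 0.0106). IEC12 and IEC4 differed by 0.04 (95% CI -0.26 to 0.35, adjusted p = 0.814). AOC was lower than IEC2 by -1.60 (adjusted p = 5.18e-07), than IEC4 by -1.01 (adjusted p = 2.54e-05) and than IEC12 by -1.06 (adjusted p = 2.13e-05). The 5 called differences of LTA4H passed in all 13 alternatives each.

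ALOX5, the 5-lipoxygenase, was at 0.133, 0.116 and 0.10 FPKM in AOC. It was at 1.68, 1.21 and 1.32 in IEC2, at 1.17, 1.92 and 2.86 in IEC4 and at 2.66, 2.36 and 2.54 in IEC12. It passed the filter on low values through the induced cells. AOC was below all induced libraries, with differences of -1.10 to IEC2 (adjusted p = 0.00029), -1.38 to IEC4 (adjusted p = 4.89e-05) and -1.66 to IEC12 (adjusted p = 1.31e-05). With no filter, under which no gene is chosen by its level, the adjusted p were 0.000892, 0.000189 and 6.32e-05. The IEC12 libraries were above those of IEC2, and IEC4 overlapped with both. The difference of 0.56 between IEC12 and IEC2 did not pass (95% CI 0.06 to 1.05, adjusted p = 0.0658), except when only these 2 groups were fitted (adjusted p = 0.0324). ALOX5 was at least 1 FPKM in all 9 induced libraries, while LTA4H was at 199 or above, so the 2 consecutive steps stood at very different transcript levels. ALOX5AP (FLAP), the membrane protein that presents arachidonic acid to ALOX5, went the opposite way between AOC and the induced cells. AOC libraries held 5.33 to 7.46 FPKM of it, against 1.66 to 2.46 at day 2, 0.191 to 1.35 at day 4 and 1.70 to 3.45 at day 12. It was 2.13 higher in AOC than in IEC4 (adjusted p = 2.59e-05) and 1.28 higher than in IEC2 (adjusted p = 0.00132). The lead of AOC over IEC12 was 0.93 (limma adjusted p = 0.0106).

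**Figure D3:**
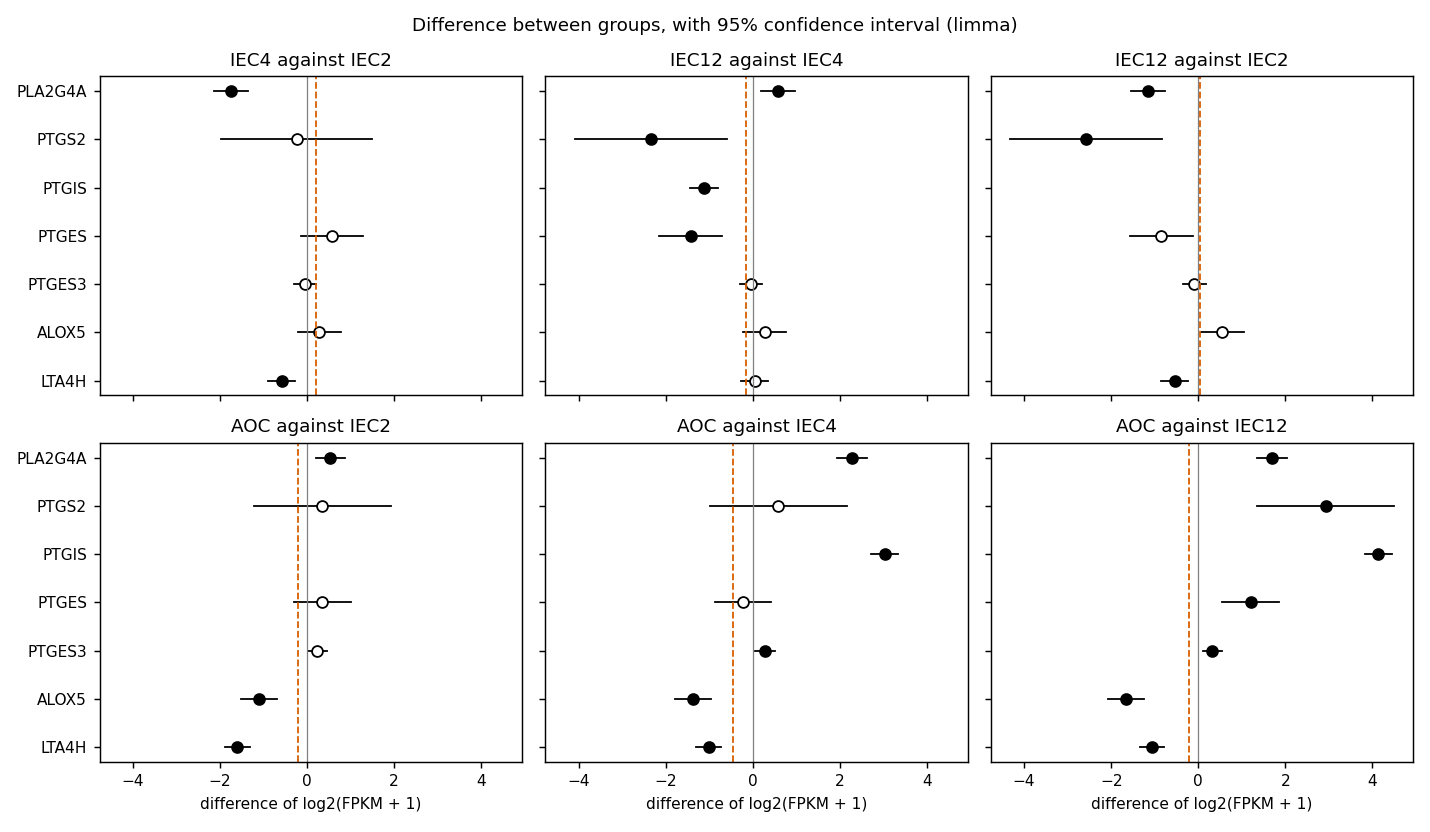
Differences of log2(FPKM + 1) between groups (first minus second, horizontal axes) with 95% confidence intervals for the 7 enzymes tested in the 6 comparisons; filled points were called (adjusted p below 0.05) and the dashed line is the median of all genes tested. PTGIS is left out against IEC2, which was listed at 0. PTGIS and PLA2G4A lie far to the right in AOC against IEC4 and IEC12, and LTA4H and ALOX5 to the left.

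The counts were set beside the share of all genes called. In IEC4 against IEC2, 3 of the 7 enzymes tested were called, 1 higher and 2 lower, where 37.3% of the 10542 genes tested were called (24.8% higher, 12.5% lower). In IEC12 against IEC4 it was 4 of 7, 1 higher and 3 lower, beside 44.2% of all genes (17.3% higher, 26.9% lower). In IEC12 against IEC2 it was 3 of 7, all lower, beside 43.6% (24.2% higher, 19.3% lower). Between stages the enzymes' share was near that of all genes. The fit of all libraries tested 11053 genes. In AOC against IEC2, 4 of 7 were called, 2 higher and 2 lower, beside 63.8% (26.7% higher, 37.1% lower). In AOC against IEC4 it was 5 of 7, 3 higher and 2 lower, beside 69.1% (22.1% higher, 47% lower). In AOC against IEC12 it was 7 of 7, 5 higher and 2 lower, beside 58.5% (22.4% higher, 36.2% lower). PTGIS and ALOX5, which passed the filter through one side only, are among the 7. So is PTGS2, which was below 1 FPKM in all IEC12 libraries and passed through the other groups. These counts are therefore a description of the enzymes and no test of them. The median difference of the enzymes tested was -0.05, -0.04, -0.54, 0.35, 0.29 and 1.20 in these 6 comparisons, and that of all genes 0.20, -0.15, 0.03, -0.20, -0.45 and -0.22. Measured from the median of all genes, AOC minus IEC4 was 2.73 for PLA2G4A, 0.73 for PTGES3 and -0.56 for LTA4H. The study's own limits (p and adjusted p below 0.001 and a log2 change above 3) were set for iPS cells against AOC, a comparison not made here. Put on the differences of log2(FPKM + 1), they called PTGIS in AOC against each of the 3 stages, where 5.47%, 5.17% and 4.41% of genes were called. Against IEC4 the PTGIS difference of 3.03 was close to the limit, and its alternatives went down to 2.83. Between stages these limits called 0 of 7 in limma, with 3, 4 and 5 at an unadjusted p below 0.05, and 1.18%, 0.939% and 1.22% of all genes. The comparisons share groups, so their counts are not independent.

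Around these enzymes, 67 of 87 further genes of the route were found by symbol and 30 of them were tested. Of the 30, 17 were called in IEC4 against IEC2 (11 higher; 37.3% of all genes were called), 12 in IEC12 against IEC4 (4 higher; 44.2%) and 14 in IEC12 against IEC2 (8 higher; 43.6%). Against AOC, 22 were called for IEC2 (10 higher in AOC; 63.8% of all genes), 22 for IEC4 (9 higher; 69.1%) and 20 for IEC12 (11 higher; 58.5%). IEC4 against IEC2 apart, these counts lay near the share of all genes. Their median differences in the same order were 0.44, -0.27, 0.15, -0.02, -0.38 and 0.25. Some of these genes passed the filter on low values only through groups where they were high. FAAH, ELOVL2, PRXL2B and PTGFRN were below 1 FPKM in all AOC libraries. LPCAT2 was so in all IEC2 and AOC libraries, and PTGR3 in all IEC4 libraries. For comparisons with those groups, the limma adjusted p given below are a description and no test.

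All 10 genes listed for the supply, activation or re-esterification of arachidonic acid were tested. Of them, 6, 4 and 7 were called in IEC4 against IEC2, IEC12 against IEC4 and IEC12 against IEC2, beside 37.3%, 44.2% and 43.6% of all genes. LPCAT2, which puts acyl chains back into phospholipids, was at 0.102 FPKM on average in IEC2, 3.53 in IEC4 and 5.70 in IEC12, and at 0.425 in AOC. It was 1.94 higher in IEC4 than in IEC2 (adjusted p = 0.00197). MBOAT7, which prefers arachidonic acid when it esterifies lysophosphatidylinositol, fell over the same step by 1.09 (adjusted p = 0.00856). The acyl-CoA synthetases, which activate the fatty acid, diverged from IEC4 to IEC12. ACSL4, the one with a known preference for arachidonic acid, fell by 1.94 (25.3 to 5.85 FPKM, adjusted p = 3.36e-05) and ACSL1 by 1.90 (adjusted p = 0.00181), while ACSL3 rose by 1.05 (66.0 to 137 FPKM, adjusted p = 0.000535). ACSL4 was 2.07 higher in AOC than in IEC12 (adjusted p = 4.49e-06). The elongase ELOVL5 was at 19.3 FPKM in AOC against 5.48 in IEC2 and 6.59 in IEC4 (differences 1.64 and 1.42, adjusted p = 1.51e-06 and 5.5e-06). The desaturase FADS1 was lower in AOC than in IEC2 by -1.49 (adjusted p = 0.00032). ELOVL2 was near 0 in AOC and 1.06 lower there than in IEC12 (a difference of -1.06, adjusted p = 0.000271).

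Of 19 further release genes found, 7 were tested. MGLL, which frees arachidonic acid from the endocannabinoid 2-arachidonoylglycerol, was at 13.0 to 17.5 FPKM in AOC and at most 4.16 in the induced libraries, and was 3.07 higher in AOC than in IEC12 (adjusted p = 3.62e-06). FAAH, which does so from anandamide, went the other way. It was at 0.0722 to 0.131 FPKM in AOC and at 6.46 to 10.4 in IEC4 (difference -3.06, adjusted p = 1.83e-05). The secreted phospholipase PLA2G3 rose from 3.72 FPKM in IEC2 to 16.4 in IEC4 (difference 1.91, adjusted p = 0.00319), the step at which PLA2G4A fell, and was at 5.66 in IEC12 (difference -1.41, adjusted p = 0.0126). PNPLA8, a calcium-independent phospholipase, was lower in AOC than in each stage by -1.0 to -1.4. ANXA1 (annexin A1), known as an inhibitor of phospholipase A2, was the most abundant of these genes, at 432 to 801 FPKM in the induced cells and 876 to 1131 in AOC. It was 1.03 higher in AOC than in IEC4 (adjusted p = 0.000103).

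Of the other genes that make or break down prostaglandins, AKR1B1, an aldose reductase that can make prostaglandin F2 alpha, was higher in AOC (50.5 FPKM) than in IEC2 (16.9, difference 1.53, adjusted p = 1.22e-05) and IEC12 (25.0, difference 1.03, adjusted p = 0.000369). PRXL2B, a prostaglandin F synthase, was lower in AOC (0.814) than in IEC2 (3.08, difference -1.16, adjusted p = 0.00128). The reductases that inactivate prostaglandins moved unequally. PTGR3 was at 6.55 to 10.6 FPKM at day 2, 0.253 to 0.540 at day 4, 2.12 to 2.39 at day 12 and 7.56 to 9.07 in the line. It fell by 2.75 from IEC2 to IEC4 (adjusted p = 1.28e-05) and rose by 1.22 from IEC4 to IEC12 (adjusted p = 0.00113). PTGR1 was higher and PTGR2 lower in AOC than in IEC12 (differences 1.08 and -1.16, adjusted p = 5.89e-05 and 2.25e-05). HPGD, the 15-hydroxyprostaglandin dehydrogenase, was not tested. It was at 0.981, 0.558 and 4.69 FPKM in IEC4 and at most 0.0758 elsewhere.

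Further along the leukotriene and epoxide branches, MGST3, a microsomal glutathione transferase that can make leukotriene C4, was at 12.1 to 29.9 FPKM in AOC and at most 4.52 in the induced cells (difference 2.11 to IEC12, adjusted p = 0.000355). The epoxide hydrolases EPHX1 and EPHX2, which degrade epoxides such as those made from arachidonic acid, rose from day 2 to day 4. EPHX1 went from 16.9 to 59.5 FPKM (difference 1.78, adjusted p = 0.000115) and EPHX2 from 7.96 to 24.5 (difference 1.51, adjusted p = 0.000516). EPHX1 was at 6.05 FPKM in AOC (AOC minus IEC4 -3.18, adjusted p = 8.83e-07), and EPHX3 was also lower there than in IEC4 (-1.31, adjusted p = 0.00302). CYP2U1, a fatty acid hydroxylase, was higher in AOC than in IEC2 by 1.36 (adjusted p = 0.000103).

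**Figure D4:**
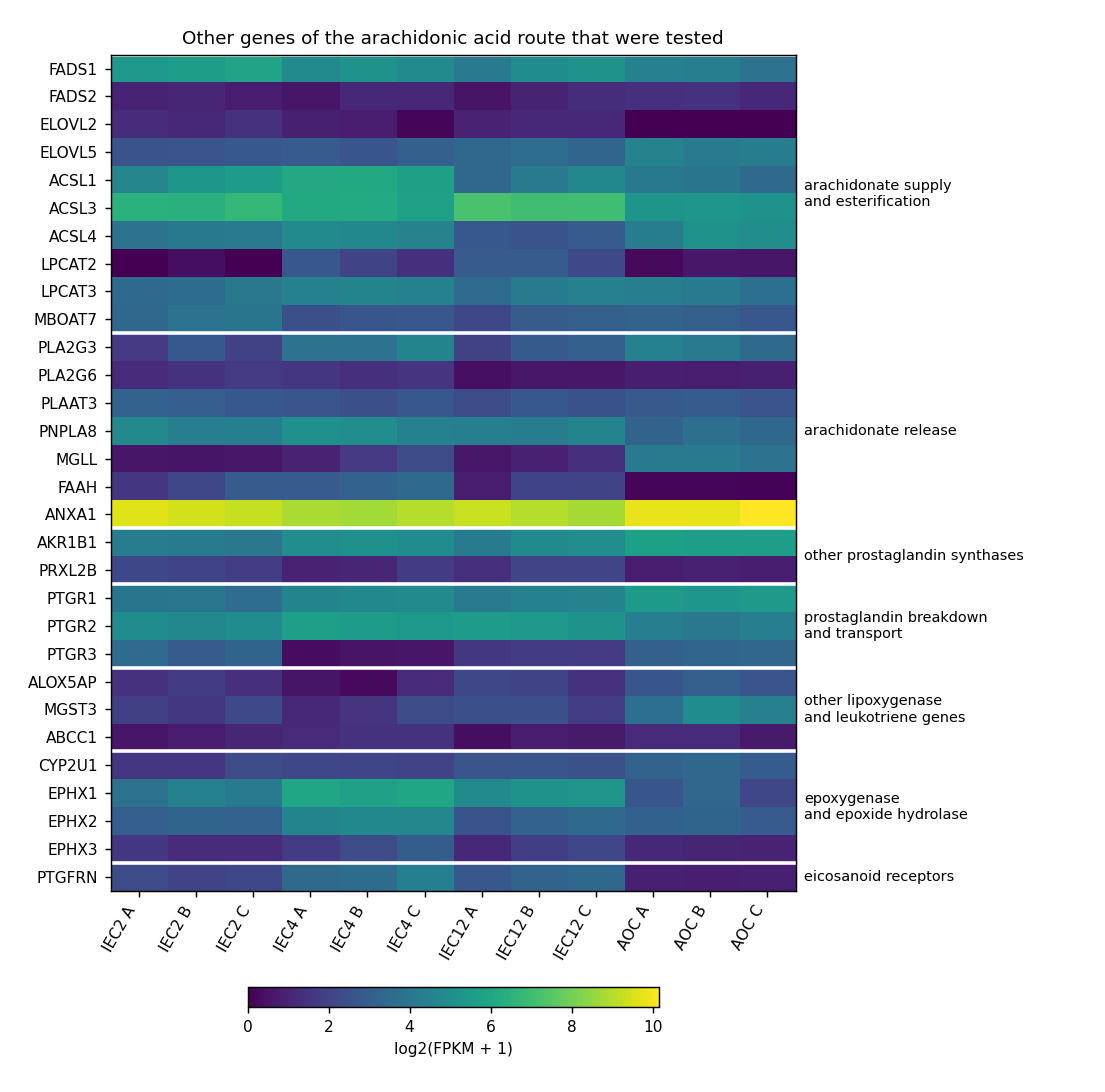
Level of the 30 other tested genes of the route in the 12 libraries, as log2(FPKM + 1) on the color scale; rows are genes grouped by role and columns are libraries. ANXA1 is bright in all libraries, EPHX1 is brightest at day 4, PTGR3 is darkest there, and MGLL and MGST3 are brightest in AOC.

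The receptors through which the products act were low in all groups. PTGER2, a prostaglandin E2 receptor, was at 0.706 to 0.947 FPKM in AOC and at most 0.245 in the induced cells. PTGER3 was at most 0.287 and PTGER4 at most 0.403 FPKM in any library. PTGIR, the prostacyclin receptor, was at 0.0458 and 0.0112 in AOC A and B and was listed at 0 in the other libraries, so the line with the most PTGIS transcript held very little transcript of its receptor. TBXA2R, the thromboxane receptor, was at 0.456 to 1.12 in IEC4, 0.170 to 0.712 in IEC12, 0.0128 to 0.267 in IEC2 and 0.0272 to 0.0984 in AOC. PTGER1 and LTB4R were not found by symbol. LTB4R2, a second receptor of leukotriene B4 that was added after its values were seen, was at 0.407 and 0.0367 FPKM in AOC B and C and was listed at 0 in the other 10 libraries. Of the 10 receptor genes found, PTGFRN passed the filter, a surface protein that is named for inhibiting the prostaglandin F receptor. It rose from 3.58 FPKM in IEC2 to 13.7 in IEC4 (difference 1.63, adjusted p = 0.00112) and was lower in AOC than in IEC4 by -2.95 (adjusted p = 6.12e-07). Its values in IEC4 were 10.5, 10.9 and 19.7, with replicate C again the highest.

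For each enzyme tested, the genes whose log2(FPKM + 1) was most like it over the 12 libraries were found by Pearson's r among 9158 genes with a symbol. The libraries form 4 groups of 3, so r describes the order of the groups more than the spread within them. PTGIS was closest to MT1X (r = 0.995), APOA1 and PLS3, and PLA2G4A to RHOJ (r = 0.984), RGS2 and MTUS1. LTA4H was closest to PDHX (r = 0.986), ARV1 and OLA1, and ALOX5 to FAF2 (r = 0.978), ARNT2 and PERP. PTGES was closest to DUSP5 (r = 0.932), ASAH1 and NIPAL1. The lowest best values were those of PTGS2, with CST3 (r = 0.918), ADAM9 and PLAUR, and of PTGES3, with EIF4A1 (r = 0.915), ETHE1 and ATP6V1F.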

How the data were processed

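The 12 files analysed hold 1 FPKM value per Ensembl gene and library, as deposited by the authors. Amplified cDNA was made by Smart-Seq2 and sequenced on an Illumina HiSeq instrument. The submitters' processing notes name Bowtie2 2.2.3, TopHat2 2.0.12, Cufflinks 2.2.1 and susScr11; the annotation release, the strand setting and any scaling between libraries are not given in the sources used here. The unit was read from these notes and the values, and no counts were used.

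Groups and replicate letters came from the sample titles. Symbols were matched for 13998 of 19681 gene IDs, and coordinates of all 10 enzymes came from RefSeq (Sscrofa11.1). Values were taken as log2(FPKM + 1). Genes that reached an FPKM of 1 in 3 or more libraries were tested in R 4.3.3 with limma 3.58.1 (lmFit, contrasts.fit, eBayes with a trend) and Benjamini-Hochberg adjustment. Stages were compared in a fit of the 9 induced libraries and AOC in a fit of all 12. The code was tested on simulated data. No library pair held identical values. The methods call the replicates biological and do not say whether inductions were separate. The limma p-values therefore set each difference against the spread between these samples only.

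The enzymes and gene lists were chosen with earlier results of these data known. All 10 enzymes were named. Of the other lists, the text names called genes with an absolute log2 change of at least 1, at most 4 per list and comparison. The receptors of the enzymes' products are named as well. HPGD, which was not tested, was named outside this rule. Alternatives changed the pseudocount (0.1), filter, libraries in the fit, replicate block, library scaling, variance prior, limits of a call and, 1 at a time, the libraries. Terminal synthase and cyclooxygenase shares are percent of summed FPKM and were not tested.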

Additional observations from a re-analysis of the deposited data

How the results depend on the processing

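No called difference of an enzyme changed direction. Over the alternatives for single enzymes, calls were kept in 316 cases and lost in 22; differences not called stayed so in 210 and gained a call in 16. The study's limits called 0, 0 and 0 of 7 enzymes in IEC4 against IEC2, IEC12 against IEC4 and IEC12 against IEC2, and 1, 1 and 1 in AOC against IEC2, IEC4 and IEC12. Fitting only the 2 groups gave 5 of 7 in IEC12 against IEC2, beside 41.3% of all genes. No filter gave 7 of 10 in AOC against IEC2, beside 41.1%, and PTGS1, PTGES2 and PTGES3 were added there. Leaving out 1 library gave 3 to 4, 2 to 4, 2 to 3, 4 to 5, 4 to 6 and 6 to 7 in these 6 comparisons. The shares of all genes were then 28.3% to 33.0%, 32.4% to 45.6% and 31.9% to 41.4% between stages. For AOC against IEC2, IEC4 and IEC12 they were 58.3% to 63.1%, 62.6% to 66.7% and 51.6% to 59.1%. The count of 2 in IEC12 against IEC4 came without IEC12 B or without IEC12 C. Without PTGES3 the synthase shares were 56.7%, 7.74% and 0.562% for PTGIS in AOC, IEC4 and IEC12, 42.1%, 99.2%, 92.0% and 97.4% for PTGES and 1.19%, 0.308%, 0.285% and 2.01% for PTGES2 in AOC, IEC2, IEC4 and IEC12, and 0.491% for TBXAS1 in IEC2; their construction sets these moves.

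With the replicate block, 3, 4, 3, 4, 5 and 7 enzymes were called, beside 37.0%, 43.3%, 42.6%, 62.8%, 67.9% and 57.0% of all genes. Deviations of libraries with the same letter correlated between -0.514 and 0.246, so the letters were not taken to pair the samples. Scaling moved the split of all calls: 66.5% were higher in IEC4 against IEC2, and 50.3% with median-of-ratios scaling; 39.2% in IEC12 against IEC4, and 51.8% with median-of-ratios scaling or 25.9% with equal totals; 55.7% in IEC12 against IEC2, and 36.8% with equal totals. For AOC, 41.9%, 32.0% and 38.2% were higher against IEC2, IEC4 and IEC12, and 50.3%, 49.7% and 50.5% with median-of-ratios scaling; equal totals gave 31.5% against IEC2. The number of reads is unknown, so values below 1 FPKM carry no stated error beyond the spread of 3 libraries.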
